A study of Rattus norvegicus with 70 samples.

Results

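The peaks described here are intergenic stretches of the rat genome in which liver DNA pulled down for methylation gave more reads after high-dose diethylnitrosamine (DEN) than after phenobarbital alone, or fewer. They were taken from the authors' deposited peak list, which sets rats given DEN at 30 mg/kg and then phenobarbital against rats given vehicle and then phenobarbital, at time points named 5w and 11w. A peak was kept if it lay on an autosome, had no distance to a transcript start in the list and overlapped no peak of the other time point by even 1 bp. This left 19465 of 35323 unique peaks (55.1%), which the list gives in 36231 rows. Of 20406 unique intergenic peaks, 609 lay on the X chromosome, and 332 of the 19797 on autosomes overlapped a peak of the other time. Because DEN against phenobarbital is the contrast that made the list, the counts, widths and reads of these peaks are given as a description with no test.

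The study followed 2-stage hepatocarcinogenesis in outbred Crj:CD(SD)IGS rats, in which an initiating toxicant is followed by a promoter of tumour growth. The high-dose group received DEN at 30 mg/kg for 1 week only, because of marked loss of body weight, whereas other treatments lasted 1 or 2 weeks. All animals then had 2 weeks without treatment and a partial hepatectomy 1 week into promotion, and all but the water control received phenobarbital at 500 ppm in the drinking water. The control of the peak list received 0.5% methylcellulose as vehicle and then phenobarbital. The other groups were vehicle and then plain water, acetaminophen (1000 mg/kg), low-dose DEN (3 mg/kg), methapyrilene (100 mg/kg) and thioacetamide (45 mg/kg), each of these 4 initiators followed by phenobarbital. Liver DNA came from 5 rats per group at hepatectomy (1 week of promotion) and from 5 at the end (6 weeks of promotion), 70 libraries in all. Whether the same rats were sampled at both times is not in the labels used here. The time 5w is read here as hepatectomy and 11w as the end of the study. The age and sex of the animals are not in the labels used here, and whole liver was used, so a change in the cells present and a change of methylation within a cell cannot be told apart.

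A methyl-binding domain protein captures DNA fragments that carry methylated CpG sites, and sequencing the captured fragments shows where they came from. Most CpG sites between genes are methylated in normal mammalian tissue, many of them in repeats, and loss of this methylation is a known feature of liver tumours in rodents. DEN is activated by liver cytochrome P450 enzymes to a DNA-alkylating agent, and phenobarbital promotes the growth of initiated cells through the receptor CAR.

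The share of intergenic peaks higher after DEN differed between the time points, which by the rule hold separate peaks. At 5w, 15326 peaks were higher after DEN and 716 were lower, so 95.5% were higher. At 11w, 1019 were higher and 2404 were lower, so 29.8% were higher. These shares lay near those of the list as a whole, in which 95.5% of the 28488 unique autosomal peaks at 5w and 32% of the 6109 at 11w were higher after DEN. Peaks in or just upstream of genes, chosen by the same steps, were also mostly higher at 5w (11718 of 12175, 96.2%) and mostly lower at 11w (827 of 2416 higher, 34.2%). Among the intergenic autosomal peaks that did overlap a peak of the other time, 106 of 167 were higher at 5w (63.5%) and 70 of 165 at 11w (42.4%). On the X chromosome 442 of 489 intergenic peaks seen at 1 time only were higher at 5w, and 42 of 112 at 11w. The list gives 1 comparison for each time point and no values of single animals, so the spread between animals behind these counts is unknown.

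One property of the libraries was unevenly shared between the groups of the peak list at hepatectomy. In 9 of the 70 libraries under 1% of the regions around transcript starts had no read (0.611% to 0.932%), against 1.60% to 5.39% in the other 61. At hepatectomy replicates 3 and 4 of the high-dose DEN group were such libraries (0.856% and 0.879%), and none of the phenobarbital group was (2.71% to 4.79%). At the end of the study the high-dose DEN and phenobarbital groups held 1 such library each, replicate 3 after DEN (0.914%) and replicate 5 after phenobarbital alone (0.739%). The part of these libraries in the direction of the peaks was not tested, since the list does not give reads by library.

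The peaks were narrow. The median width was 184 bp for those higher after DEN at 5w, 179 bp for those lower at 5w, and 180 bp for either direction at 11w. No peak was narrower than 150 bp, and 16138 (82.9%) were at most 200 bp wide. Widths over 300 bp were found in 196 of the 15326 peaks higher at 5w (1.28%), in 2 of those lower at 5w, in 1 of those higher at 11w and in 5 of those lower at 11w. The widths of the genic peaks had medians of 184, 178, 180 and 180 bp in the same order. Together the intergenic peaks higher at 5w covered 2932 kb, against 130 kb for those lower at 5w, 185 kb for those higher at 11w and 439 kb for those lower at 11w.

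Most peaks rested on few reads. All counts and enrichment factors of peaks given here are the authors', and an enrichment factor is the ratio of the reads in the higher set to those in the other set times a constant of the comparison. The constant was 0.946 for peaks higher and 1.06 for peaks lower after DEN at 5w, and 0.943 and 1.06 at 11w. The fewest reads of any listed peak in its higher set were 15. The median was 18 reads against 2 in the other set for peaks higher at 5w, and 22 against 4 for those lower at 5w. At 11w it was 20 against 3 for peaks higher after DEN and 18 against 3 for those lower. Of the peaks higher at 5w, 2248 (14.7%) stood at exactly 15 reads, the smallest number in the list, and so did 355 of those lower at 11w (14.8%), 116 of those higher at 11w (11.4%) and 38 of those lower at 5w (5.31%). The other set had no read in 1388 peaks higher at 5w (9.06%), compared with 15, 12 and 55 peaks in the groups lower at 5w, higher at 11w and lower at 11w. Peaks with no read in the other set have no factor and are left out of its medians. The median enrichment factor was 8.04 for peaks higher at 5w, 6.13 for those lower at 5w, 6.36 for those higher at 11w and 6.72 for those lower at 11w. More than 100 reads were found in 13, 2, 8 and 11 peaks of these groups.

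**Figure D1:**
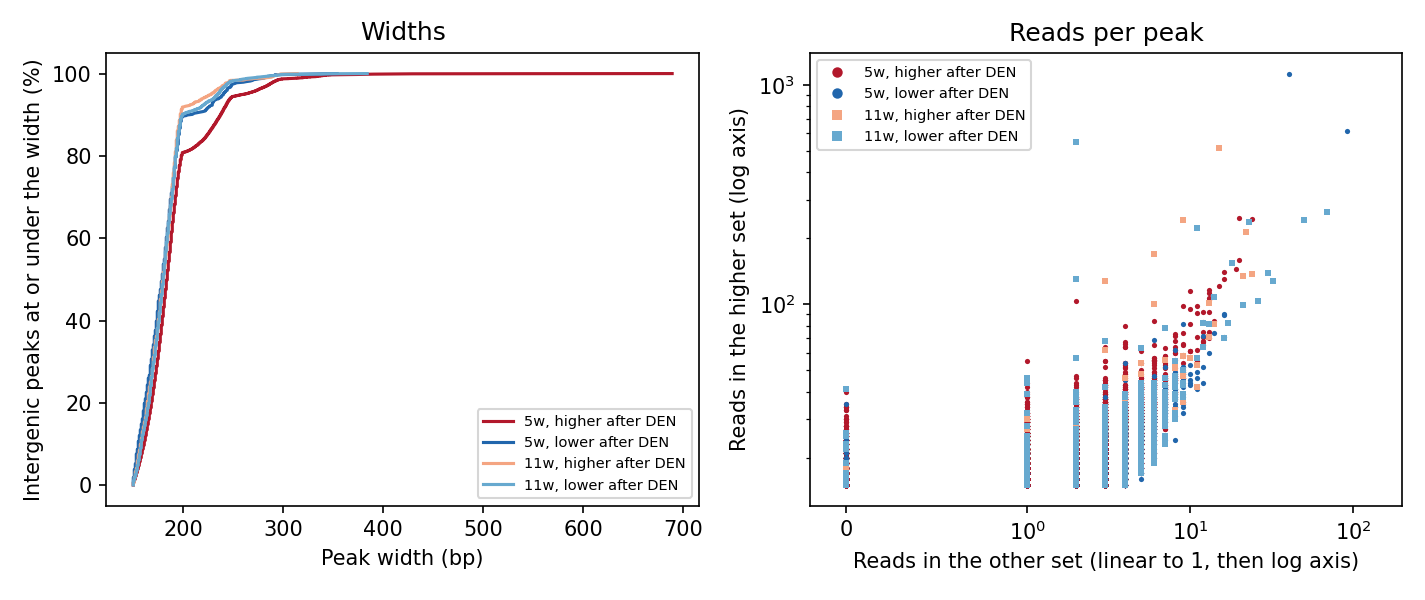
Left, the share of intergenic peaks (%) at or under each width (bp) in the 4 groups of time and direction, and right, the reads of each peak in its higher set (log axis) against those in the other set. The curves lie together up to 200 bp, the peaks higher at 5w alone reach past 384 bp, and a handful of peaks stand above 500 reads.

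A few peaks carried far more reads than the rest. The peak with the most reads of all was lower after DEN at 5w, on chromosome 2 from 40631901 to 40632095, with 5.77 reads per base over 195 bp after phenobarbital, 40 reads in all after DEN and a factor of 29.7, at 12.7 kb from the nearest listed start of Pde4d, a cAMP phosphodiesterase. Another peak lower at 5w, on chromosome 17 from 14894951 to 14895148, had 616 reads against 91 and lay 15.2 kb from a start of Catsper3, a subunit of the sperm calcium channel. At 11w the peak with the most reads that was lower after DEN, on chromosome 10 from 58586925 to 58587082, had 549 reads against 2, an enrichment factor of 291, and lay 29.5 kb from Wscd1. The next factor in that group was 69.5, for 131 reads against 2 on chromosome 6 from 5094377 to 5094533, 403 kb from the sodium-calcium exchanger gene Slc8a1. After it came a peak of 46 reads against 1 on chromosome 1 from 44903718 to 44903898, 18.4 kb from Qk, which encodes an RNA-binding protein. These 5 peaks were between 157 and 198 bp wide, close to the usual width. Next by reads among peaks lower at 11w came 264 against 69 (factor 4.06), 111 kb from Adarb2. After it came 242 against 50 (factor 5.13), 326 kb from Sipa1l1. Among peaks lower at 5w, 90 reads against 16 (factor 5.95) lay 133 kb from Pdzrn4. Factors of 29.6 and 26.4 in that group belonged to 28 and 25 reads against 1. The widest peaks lower at 5w measured 354 and 322 bp.

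Among peaks higher after DEN at 11w, chromosome 6 from 1997055 to 1997249 held 515 reads against 15, a factor of 32.4, at 135 kb from Cdc42ep3. The highest factor in that group, 39.9, belonged to 127 reads against 3 on chromosome 15 from 83453472 to 83453641, 350 kb from the transcription factor gene Klf5. A factor of 28.3 belonged to 30 reads against 1, 276 kb from Insc on chromosome 1. A peak on chromosome 14 from 107606107 to 107606293 had 242 reads against 9 and lay 155 kb from the kinase gene Vrk2, and a peak on chromosome 5 from 103550468 to 103550644 had 214 against 22 near Bnc2. The widest peaks higher at 11w measured 314 bp, 24 kb from Clca4 on chromosome 2, and 297 bp, 8.45 kb from the annexin gene Anxa1 on chromosome 1. The widest peaks lower at 11w measured 384 bp, 16.1 kb from Tmem174 on chromosome 2, and 346 bp, 2387 kb from Pik3c3 on chromosome 18.

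In the large group higher after DEN at 5w, the most reads were 248 against 20 on chromosome 2 from 38223312 to 38223499, 169 kb from Dimt1l. Next came 244 against 24 over 580 bp on chromosome 7 from 23643061 to 23643640, 234 kb from Nt5dc3. The highest factors were 52 for 55 reads against 1 on chromosome 16 from 20544358 to 20544646, and 48.7 for 103 reads against 2 on chromosome 11 from 80916712 to 80916884, 70.5 kb from the transcription factor gene Etv5. A peak with 44 reads against 1 followed, 236 kb from Dmbt1 on chromosome 1. The widest were 689 bp with 115 reads against 10 (chromosome 16, 21500705 to 21501393) and 597 bp with 145 against 19 (chromosome 16, 21197253 to 21197849). Both of these, the peak with the highest factor and the third peak of that group by reads (159 against 20, chromosome 16, 20736721 to 20737145) lay in 1 stretch of chromosome 16.

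That stretch was the densest place of the set. The densest 1 Mb windows at 5w were chromosome 16 from 21 to 22 Mb with 133 intergenic peaks and from 20 to 21 Mb with 99, every one higher after DEN. The next window, chromosome 1 from 51 to 52 Mb, had 39, while the median over 2568 windows was 5 peaks higher at 5w. Bounds for the stretch were set after its values were seen, as the span of windows of 0.1 Mb with at least 10 such peaks, which gave 20.5 to 22.1 Mb on chromosome 16. It held 237 peaks higher at 5w, 29.8% of the 795 on the chromosome and 1.55% of the whole group. Their density was 148 per Mb, against 6.31 per Mb on the rest of chromosome 16. No peak lower at 5w and none higher at 11w fell in it, while 5 peaks lower at 11w did.

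Peaks inside the stretch had a median of 29 reads against 3 in the other set, compared with 18 against 2 for the 15089 peaks higher at 5w elsewhere. Among peaks with a read in the other set, the median enrichment factor was 8.20 inside and 8.04 elsewhere. Both sets had more reads inside, and for those peaks their ratio was about as elsewhere. Wider peaks were more frequent, with 31 of 237 over 300 bp (13.1%) against 165 of 15089 (1.09%). The peaks were not evenly spread, since 11 of the 16 windows of 0.1 Mb held 10 or more, 2 held none and the fullest held 32. The region tables list 1 transcript start inside, that of Ints10, a subunit of the Integrator complex, at 21938144. The nearest listed start before it belongs to the zinc finger gene Zfp868 at 20251613, so 1.69 Mb between them have no listed start and no value of a single library. Whether the dense peaks came from all 5 animals given DEN was therefore not tested. Elsewhere, 4 windows of 0.1 Mb held at least 10 peaks higher at 5w, with 15 and 11 on chromosome 1, 11 on chromosome 8 and 11 on chromosome 9.

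**Figure D2:**
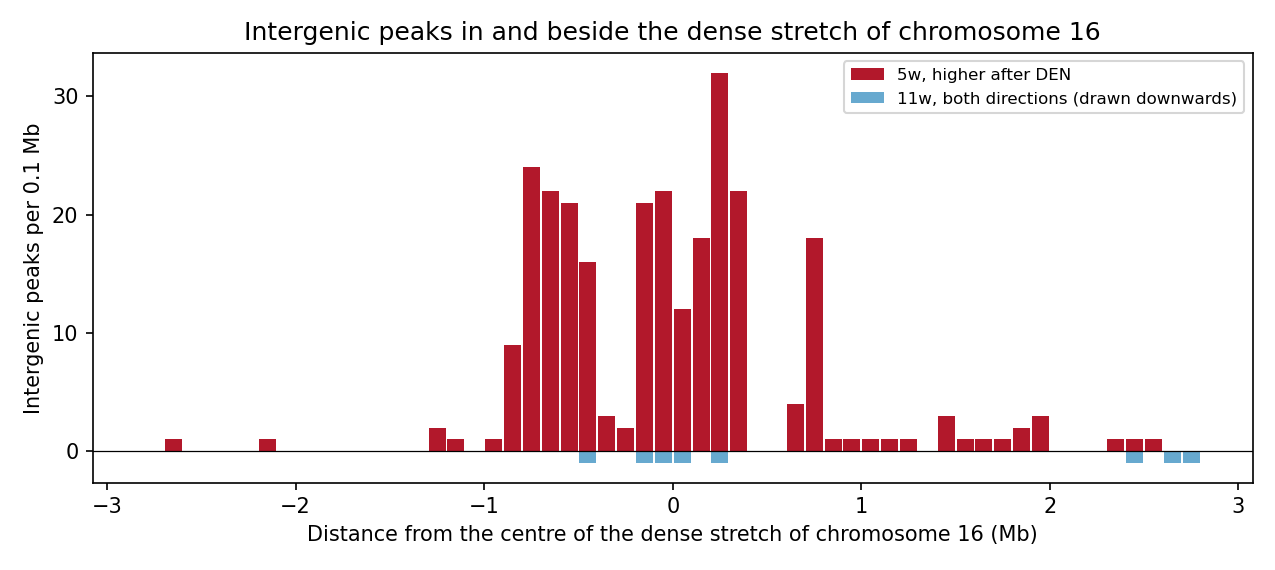
Intergenic peaks per 0.1 Mb (y axis) by distance in Mb from the centre of the dense stretch of chromosome 16, with peaks higher after DEN at 5w upwards and all peaks at 11w downwards. Up to 32 peaks fell in 1 bar inside the stretch, against at most 9 in the 2 Mb on either side of it.

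At 11w no window stood out in that way. The fullest, with 8 intergenic peaks each, were chromosome 10 from 100 to 101 Mb (2 higher, 6 lower), chromosome 4 from 14 to 15 Mb (4 of each) and chromosome 7 from 57 to 58 Mb (8 lower). The nearest start to 4 of the 8 peaks on chromosome 10 was that of the potassium channel gene Kcnj16, and to 4 of the 8 on chromosome 4 that of Sema3c, a secreted guidance factor. On chromosome 7 the kinase gene Dyrk2 was nearest to 3 of 8. Empty windows were frequent at 11w, with no peak higher at 11w in 1773 of 2568 windows (69%) and no peak lower at 11w in 1153 (44.9%), against 107 (4.17%) without a peak higher at 5w.

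The peaks were spread over all autosomes. Peaks higher at 5w ranged from 4.70 per Mb on chromosome 5 to 8.82 on chromosome 16, with a median of 5.99, and chromosome 17 followed with 7.74. Peaks lower at 11w ranged from 0.636 per Mb on chromosome 5 to 1.24 on chromosome 9, where chromosome 16 came next with 1.22. Those higher at 11w ranged from 0.292 on chromosome 15 to 0.591 on chromosome 19, and those lower at 5w from 0.186 on chromosome 8 to 0.453 on chromosome 20. The direction held on every autosome, since 92.8% (chromosome 20) to 97.3% (chromosome 8) were higher at 5w and 22% (chromosome 16) to 40.2% (chromosome 11) at 11w. Counts followed the length of the chromosome, taken as the last position in the files. Over 20 autosomes Pearson's r with length was 0.96 for peaks higher at 5w, 0.92 for those lower at 5w, 0.91 for those higher at 11w and 0.95 for those lower at 11w. All peaks of a group come from the same 2 sets of reads, so these are descriptions.

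**Figure D3:**
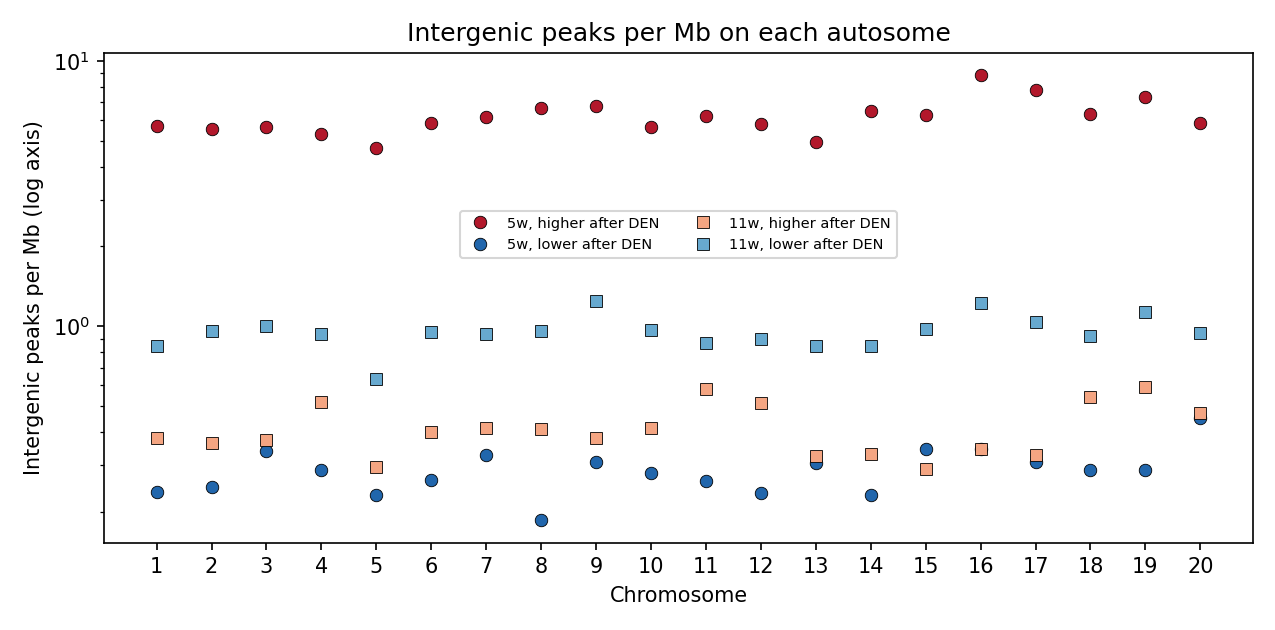
Intergenic peaks per Mb (log axis) on each of the 20 autosomes, with 1 point per group of time and direction. Peaks higher after DEN at 5w lie between 4.70 and 8.82 per Mb, above all other groups on every autosome, and chromosome 16 has the most.

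Neighbouring peaks were usually far apart. The median gap between neighbours of the same group was 73.1 kb for peaks higher at 5w, 2312 kb for those lower at 5w, 1471 kb for those higher at 11w and 594 kb for those lower at 11w. Gaps under 1 kb separated 355 of 15306 neighbouring pairs higher at 5w (2.32%) and 10 of 2384 pairs lower at 11w (0.419%). Peaks of opposite direction came within 1 kb of each other for 9 peaks of either direction at 5w and for 3 at 11w. The closest approach across the time points was 3 bp, between a peak higher at 5w on chromosome 10 from 105172275 to 105172547 and one higher at 11w from 105172551 to 105172748. The smallest overlap that removed a peak was 16 bp and occurred for 2 peaks at 5w. On chromosome 19 from 38974062 to 38974222 the peak was higher at 5w and its partner lower at 11w, and on chromosome 10 from 97623066 to 97623229 both were lower.

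Distances to listed transcript starts were long in all 4 groups, and they are not distances to the nearest edge of a gene. From the middle of the peak to the nearest of the starts in the region tables the median was 140 kb for peaks higher at 5w, 130 kb for those lower at 5w, 108 kb for those higher at 11w and 145 kb for those lower at 11w. The genic peaks had medians of 45.8, 34.4, 30.4 and 47.7 kb in the same order. More than 1 Mb from a listed start lay 791 peaks higher at 5w (5.16%), 66 lower at 5w (9.22%), 58 higher at 11w (5.69%) and 135 lower at 11w (5.62%). The peaks higher at 5w had 4786 different genes as their nearest start, led by Ints10 with 146 peaks and Zfp868 with 98, whose starts lie inside and beside the dense stretch, respectively, then Dact2 and RGD1564755 with 50 each, both on chromosome 1. Peaks lower at 11w had 1658 genes nearest, led by Eif4g2, a translation initiation factor, with 12, the transcription repressor gene Zeb2 with 9 and Lphn2 with 8. Flrt2 was nearest to 6 peaks lower at 5w and to 6 lower at 11w.

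By family, olfactory receptors (Olr) make up 7.40% of the listed autosomal starts, and they were nearest to 191 peaks higher at 5w (1.25%), 16 lower at 5w (2.23%), 12 higher at 11w (1.18%) and 35 lower at 11w (1.46%). Vomeronasal receptors, 1.08% of starts, were nearest to 59, 3, 4 and 11 peaks in the same order (0.385%, 0.419%, 0.393% and 0.458%). Zinc finger genes (Zfp or Znf), 1.10% of starts, were nearest to 305 peaks higher at 5w (1.99%), 98 of which belonged to Zfp868. Families with liver functions included the cytochrome P450 genes (Cyp), 0.442% of starts. These were nearest to 36, 2, 1 and 7 peaks (0.235%, 0.279%, 0.0981% and 0.291%). The glucuronosyltransferases (Ugt), 0.118% of starts, were nearest to 4, 0, 1 and 0 (0.0261%, 0%, 0.0981% and 0%). The solute carriers (Slc), 2.03% of starts, were nearest to 280, 9, 18 and 48 (1.83%, 1.26%, 1.77% and 2.00%). The major histocompatibility genes (RT1), 0.262% of starts, were nearest to 9, 6, 0 and 2 peaks (0.0587%, 0.838%, 0% and 0.0832%). The protocadherins (Pcdh), 0.299% of starts, were nearest to 61, 5, 2 and 17 (0.398%, 0.698%, 0.196% and 0.707%). The Hox genes, 0.143% of starts, were nearest to 2, 1, 0 and 0 (0.0130%, 0.140%, 0% and 0%). Clustered genes share long intergenic flanks, so shares of peaks and shares of starts are not on equal terms, and no enrichment was computed.

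**Figure D4:**
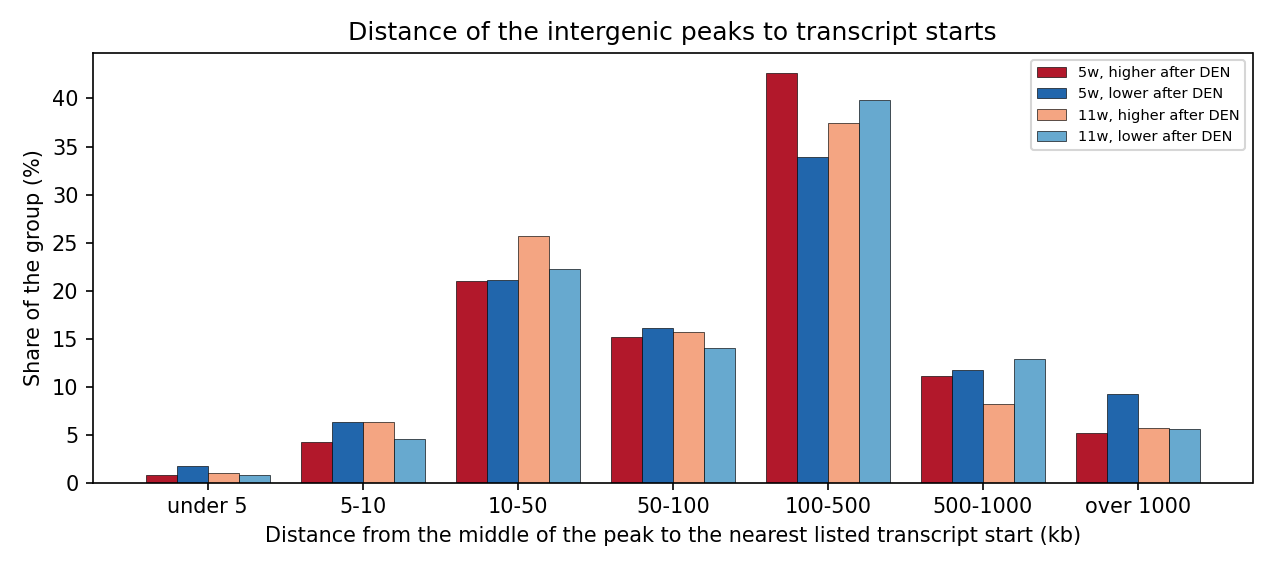
Share of each group (%) by distance in kb from the middle of the peak to the nearest listed transcript start, with 1 bar per group of time and direction. In all 4 groups the fullest class is 100 to 500 kb, and under 2% of peaks lie within 5 kb.

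Although the list annotates them as intergenic, 50 of the 19465 peaks (0.257%) overlapped 1 of the 17174 regions of 5625 bp around transcript starts, which have a deposited signal for every library. At 5w, 36 peaks higher after DEN met 36 regions and 5 peaks lower met 6, and at 11w 2 peaks higher met 2 regions and 7 lower met 7. The regions of Glod4 and RGD1309077 have different coordinates but identical values in all libraries. They are 1 place that the counts and medians below enter as 2 regions. All of these regions passed the filter on low values. They are the only place where the animals behind a peak can be seen, and a region is far wider than the peak inside it.

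In the regions met by peaks higher at 5w, the high-dose DEN group exceeded the phenobarbital group by a median of 0.23 on the log2(signal + 1) scale, and 24 of 36 were higher (66.7%). Over all regions the median difference was 0.06, with 56.9% higher. Without the 2 DEN libraries with few empty regions the same 36 regions had a median of 0.08 and 63.9% were higher, while over all regions the values were 0.08 and 62.5%. These 2 libraries, replicates 3 and 4, gave the highest of the 10 values in 6 and 11 of the 36 regions. DEN replicate 5, where 4.33% of regions had no read, was also highest in 6, and phenobarbital replicate 2 was highest in 5. In the groups outside the peak list at hepatectomy, the 2 libraries of this kind exceeded the other 4 of their group in the 36 regions by a median of 0.43 (acetaminophen replicate 5) and 0.05 (water control replicate 5). Over all regions the values of acetaminophen replicate 5 and water control replicate 5 were 0.19 and -0.05. High-dose DEN replicates 3 and 4 had 0.14 and 0.23 in the 36 regions, and -0.09 and 0.02 over all regions. The 31 other libraries at hepatectomy ranged from -0.27 to 0.28 in the 36 regions and from -0.11 to 0.29 over all regions. The part of these libraries in the 36 regions was not tested. The 6 regions met by peaks lower at 5w had a median difference of -0.54 with 1 of 6 higher. Glod4 and RGD1309077, which share their values, are both counted there at -0.89. The others were Cdkn1a at -0.65, Zmynd11 at -0.44, Hspb3 at -0.35 and Cyb561 at 0.19. At 11w the median was 0.14 in the 2 regions met by peaks higher and 0.10 in the 7 met by peaks lower, where all regions had 0.06. Without DEN replicate 3 and phenobarbital replicate 5, the libraries with few empty regions, these were 0.10 and -0.08. With quantile normalization the medians were 0.08 and -0.81 for regions met by peaks higher and lower at 5w, and 0.00049 and -0.043 for those at 11w.

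With 5 libraries each, both groups stood fully apart in 2 of the 36 regions met by peaks higher at 5w, those of Dpyd and Fam102b, where all DEN values lay above all phenobarbital values. Over all regions tested this was so in 1.05%. The rule used this contrast, so nothing is read from the count, and both genes were chosen for description after their values were seen. Dpyd encodes dihydropyrimidine dehydrogenase, which breaks down pyrimidines in the liver, and its peak (chromosome 2, 214927755 to 214927995, 28 reads against 5) lay 4026 bp before its start. The region's signals at hepatectomy were 22.2, 21, 32.6, 29.1 and 16.4 in replicates 1 to 5 after high-dose DEN and 6.32, 15.6, 9.54, 5.45 and 10.3 after phenobarbital alone. The log2 difference was 1.32, and the highest DEN values were those of replicates 3 and 4. Outside the contrast, values higher than any of these were 47.5 in acetaminophen replicate 5 and 35.4 in water control replicate 5, both libraries with few empty regions, and 35.01 in thioacetamide replicate 4, where 3.37% of regions had no read. At the end of the study the difference for Dpyd was -0.12, with the highest value, 53.8, in phenobarbital replicate 5.

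Fam102b had signals of 41.3, 35.7, 47, 49.2 and 47.2 after high-dose DEN and 24.2, 24.4, 35, 20.7 and 30.1 after phenobarbital alone at hepatectomy. The lowest DEN value and the highest phenobarbital value were close, and the log2 difference was 0.71, against 0.21 at the end of the study. Cdkn1a, which encodes the cell cycle inhibitor p21, was met by a peak lower after DEN at 5w (chromosome 20, 7373543 to 7373693) with 15 reads after phenobarbital and 0 after DEN, 2707 bp before its start, and was also chosen after its values were seen. Its signals were 65.6, 45.2, 20.1, 30.1 and 38 after high-dose DEN and 46.3, 74.5, 58.3, 49.1 and 69.6 after phenobarbital alone. Of the 5 DEN values 4 lay below every phenobarbital value, and replicate 1 lay among them. The DEN mean, 39.8 ± 17.2 (SD, n = 5), was the lowest of the 7 groups, where phenobarbital alone had 59.6 ± 12.3 (SD, n = 5). The log2 difference for Cdkn1a was -0.65, and at the end of the study it was -0.57, where both groups also overlapped. Mat1a, the liver enzyme that makes the methyl donor S-adenosylmethionine, had a peak of 26 reads against 3 higher at 5w, 2295 bp before its start. The region of Mat1a was also chosen after its values were seen. Its signals were 31.7, 17.9, 27.8, 20.1 and 23.6 after DEN and 27.4, 14.4, 22.3, 17.5 and 14.1 after phenobarbital alone, which overlap. The log2 difference for Mat1a was 0.34, and at the end of the study it was 0.54, again with overlapping values.

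The regions with the longest overlap with a peak did not all follow its direction. Lypd6b, with 289 bp of a peak higher at 5w, had signals of 106, 67.3, 78.6, 94.3 and 71.9 after high-dose DEN and 81.1, 95.6, 85.8, 72.0 and 59.2 after phenobarbital alone, a log2 difference of 0.08. Znf483, a zinc finger gene with 264 bp, had 85.4 ± 16.3 (SD, n = 5) and 87.9 ± 13.9 (SD, n = 5), a difference of -0.05. Both pairs of groups overlapped. Glod4, with 196 bp of a peak lower at 5w, had low signals of 6.35, 2.10, 5.75, 4.01 and 5.13 after high-dose DEN, and 18.9, 20.1, 16.4 and 13.2 in phenobarbital replicates 2 to 5, where replicate 1 had no read. At the end of the study Cldn22, a tight junction gene with 343 bp of a peak lower after DEN, had 160 ± 31.6 (SD, n = 5) against 149 ± 28.3 (SD, n = 5), so the region's mean did not lie in the direction of the peak. Cdca4 had 47 ± 19.1 (SD, n = 5) against 53 ± 10.1 (SD, n = 5). Of the regions met by peaks higher at 11w, Epha10 of the ephrin receptor family had 189 ± 30.8 (SD, n = 5) against 175 ± 51.7 (SD, n = 5), and the sulfotransferase gene Sult5a1 had 250 ± 57 (SD, n = 5) against 237 ± 90.7 (SD, n = 5). In each of these 4 regions the 2 groups overlapped.

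**Figure D5:**
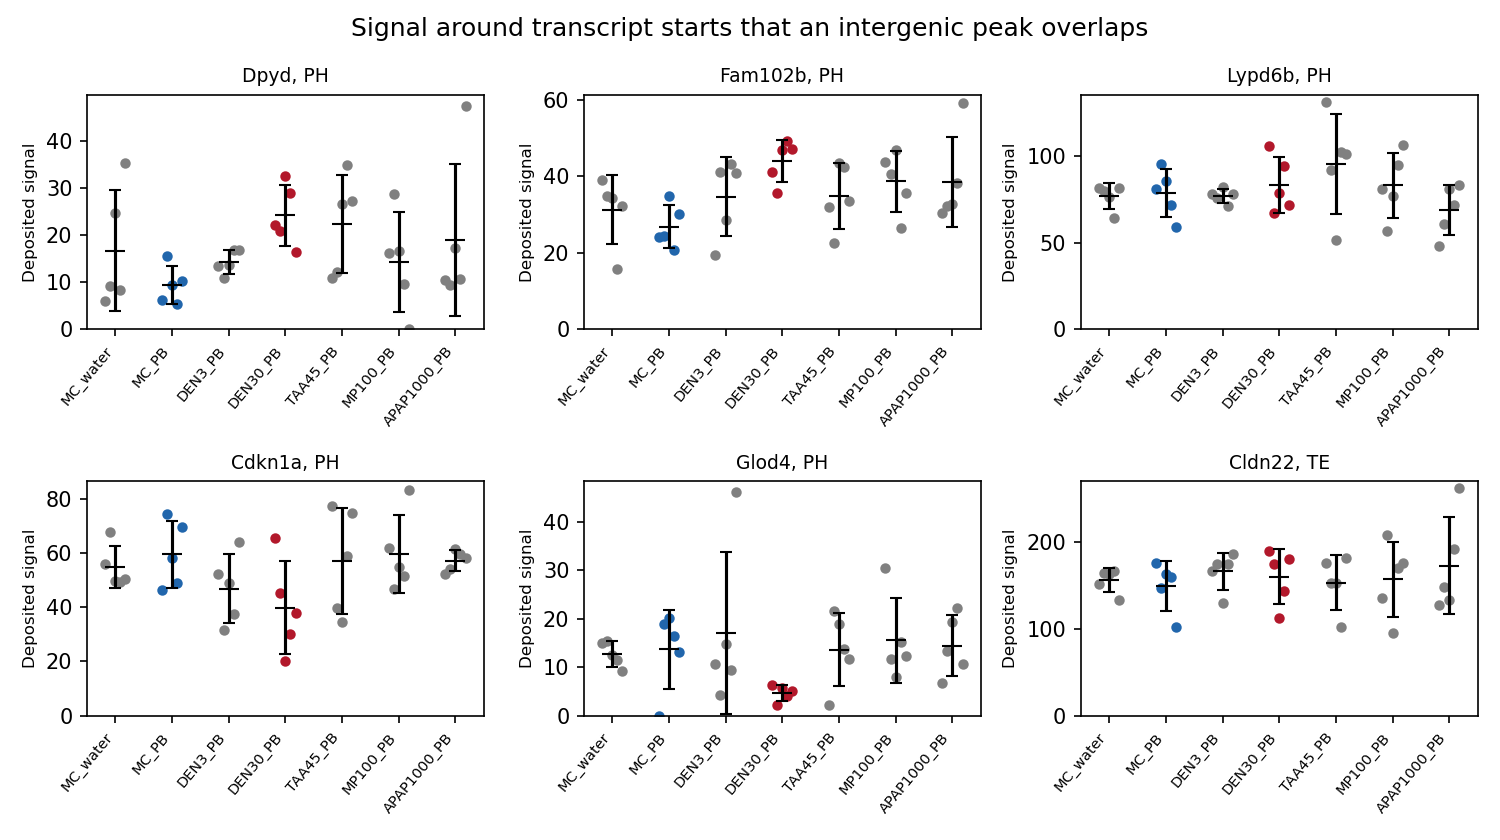
Deposited signal (y axis from 0) in 6 regions that an intergenic peak overlaps, for the 5 libraries of each of 7 groups, with the mean and SD in black, at hepatectomy (PH) or at the end (TE). The DEN 30 mg/kg points (red) stand fully above the phenobarbital points (blue) for Dpyd and Fam102b and overlap them for Lypd6b, Cdkn1a and Cldn22, and for Glod4 the single phenobarbital point near 0 lies below all red points.

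The other treatments allow a contrast between groups that the peak list did not use. The spread and the filter on low values came from all 35 libraries of a time, those of the peak list included. DEN at 3 mg/kg was set against acetaminophen, both followed by phenobarbital, in a limma fit across all regions of a time with Benjamini-Hochberg adjustment. At hepatectomy 0 of 15809 regions passed an adjusted p of 0.05 (0%), and 421 had an unadjusted p under 0.05 (2.66%). Of the 42 regions met by a 5w peak, 0 passed and 1 had an unadjusted p under 0.05, that of Cyb561, an electron-transfer cytochrome. Its signal was 111 ± 19 (SD, n = 5) after low-dose DEN and 85.0 ± 10.3 (SD, n = 5) after acetaminophen, a log2 difference of 0.37 ± 0.16 (SE) with an adjusted p of 1.00 by limma. Next came Dfna5, which encodes gasdermin E, with 82.8 ± 15 (SD, n = 5) against 65.6 ± 5.04 (SD, n = 5), and Tll2, a metalloprotease gene, with 128 ± 23.3 (SD, n = 5) against 104 ± 11.8 (SD, n = 5), neither past the threshold. At the end 0 of 16008 regions passed (0%), with 820 at an unadjusted p under 0.05 (5.12%), and none of the 9 regions met by an 11w peak was among them. The smallest p there belonged to RGD1309049 with 324 ± 27.8 (SD, n = 5) against 265 ± 98.5 (SD, n = 5), to Cdca4 with 46.4 ± 13.8 (SD, n = 5) against 56.6 ± 5.00 (SD, n = 5), and to the olfactory receptor gene Olr496 with 3.54 ± 1.22 (SD, n = 5) against 8.18 ± 4.29 (SD, n = 5).

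An F test over the 5 groups outside the peak list (water control, low-dose DEN, thioacetamide, methapyrilene and acetaminophen) asked whether any of them differed. At hepatectomy 3 of 15809 regions passed an adjusted p of 0.05 (0.019%) and 628 had an unadjusted p under 0.05 (3.97%). None of the 42 regions met by a 5w peak passed, and 1 had an unadjusted p under 0.05, again Cyb561. At the end 0 of 16008 regions passed (0%), 524 had an unadjusted p under 0.05 (3.27%), and none of the 9 regions met by an 11w peak was among them. The p-values here set differences between group means against the spread between libraries within groups. That spread was estimated from all 35 libraries of a time, with a variance trend across regions.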

How the data were processed

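Liver DNA was enriched for methylated fragments (MethylMiner) and sequenced in 70 libraries on a SOLiD 4 instrument, per the labels' protocols. The deposited peak list gives, per the file headers, read counts of each peak in the higher and the other set, a read density as a signal, the authors' enrichment factor as a ratio and a distance to a transcript start, used as a score that is empty between genes. The region tables hold a signal for each library that the authors scaled to 50 M, per the file values, and the authors' p-value per region, which was not used. Recovered scaling totals were 42.1 to 56.6 M and regions held 0.933 to 1.80 M reads per library. For the aligner, caller, build and any pooling of libraries, nothing is given in the sources used here. Summed over 5 libraries, the scaling total of phenobarbital over high-dose DEN was 0.972 and 0.976, which differs from the constants of the enrichment factors.

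Rows were made unique by time point, group and position, and widths count both ends. Coordinates are those of the files. Signals were tested as log2(value + 1) in regions with at least 5 libraries at 10 or more, with limma 3.58.1 (R 4.3.3), a variance trend, 1 mean per group and all 35 libraries of a time. On simulated data with 100 regions changed by 1 and 100 by 2 (log2) in the low-dose DEN group, 51% and 92% were recovered at hepatectomy among 15791 regions, and 57% and 91% at the end among 15946. Named peaks were, per time and direction, the 3 with the highest factor, the 3 with the most reads and the 2 widest, with the 2 densest 1 Mb windows per time. Named regions were the 2 with the largest overlap per time and direction and the 3 with the smallest p per time in low-dose DEN minus acetaminophen. Dpyd, Fam102b, Cdkn1a and Mat1a were added after their values were seen. Nearest genes were counted by symbol prefix. The members, lists and rules were chosen with earlier results of these data known. The labels number the 5 animals of each group without saying that a number is shared.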

Additional observations from a re-analysis of the deposited data

Results flagged for a closer look

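In 64 groups of 5 libraries examined for the named regions, 3 held a library far from the other 4 by Dixon's ratio, and chance flags about 1 group in 20. Acetaminophen replicate 5 at hepatectomy had a signal of 47.5 in the region of Dpyd, where the other 4 libraries reached at most 17.3. The same library had 59.1 in the region of Fam102b, where the others reached at most 38.2. It is 1 of the 9 libraries in which under 1% of regions had no read, and the part of this in the 2 values was not tested. Low-dose DEN replicate 5 at hepatectomy had 46 in the region shared by Glod4 and RGD1309077, where the others reached at most 14.9.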

How the results depend on the processing

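Of 369 recomputed values, 327 kept their side of the threshold, stayed within 1.5 times (counts) or moved by less than a set spread (values with no test). Another 21 moved further and 21 reversed. For the medians of high-dose DEN minus phenobarbital, that spread was the SD over the single DEN libraries. A change of sign within it was counted as kept, such as 0.10 to -0.043 (11w, lower) with quantile normalization. Keeping peaks with an enrichment factor at or above the median left 8551 peaks higher and 360 lower at 5w (96.0% higher), and 504 higher and 1207 lower at 11w, fewer by construction. Peaks with no read in the other set, which have no factor, were kept in these counts. The other definitions of overlap, of intergenic and of the chromosomes, and leaving out the dense stretch of chromosome 16, changed no count of peaks by 1.5 times. Low-dose DEN minus acetaminophen gave 0 to 1 regions past the threshold at hepatectomy when each replicate was left out in turn, against 0 with all. The F test gave 0 to 3 at hepatectomy (3 with all) and 0 to 1 at the end (0 with all). Without a filter or with quantile normalization the F test gave 0 at hepatectomy, and at the end quantile normalization gave 1 and leaving out the libraries with few empty regions gave 2. The cause was not tested.

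With the replicate number as a block, low-dose DEN minus acetaminophen gave 0 regions at both times, and the F test gave 3 at hepatectomy and 0 at the end. Of pairs with equal numbers, 2 of 5 at hepatectomy and 1 of 5 at the end had correlated deviations over 0.1 (-0.01 to 0.44 and -0.05 to 0.10). Of the 35 libraries of a time, 10 correlated best with a library of their own number at either time. Over all regions, replicate 5 exceeded the others of its group after high-dose DEN by a median of 0.18 at hepatectomy and 0.33 at the end. In the other initiator groups this was 0.10 to 0.29 and 0.21 to 0.45. Replicate 5 had -0.0022 and -0.037 after phenobarbital alone, and -0.047 and 0.019 in the water control. Titles number the libraries of high-dose DEN at hepatectomy 7, 8, 43, 44 and 62, in the order of replicates 1 to 5. Those of phenobarbital alone are 3, 4, 23, 24 and 42. Those of low-dose DEN are 5, 6, 25, 26 and 61, and those of acetaminophen 29, 30, 49, 50 and 65. An equal replicate number is thus not an equal place in this numbering, and the block does not adjust for it. Whether libraries shared a batch was not tested.

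In regions met by a peak, the median of high-dose DEN minus phenobarbital ranged over the fits without 1 replicate from 0.14 to 0.27 (5w, higher), -0.67 to -0.48 (5w, lower), -0.01 to 0.28 (11w, higher) and -0.18 to 0.18 (11w, lower). The lowest of both 11w ranges came without phenobarbital replicate 5 at the end. Without the libraries with few empty regions the value for 11w, lower, was -0.078. Quantile normalization gave 0.08 and -0.81 for 5w, higher and lower, and 0.00049 and -0.043 for 11w, higher and lower, against 0.23, -0.54, 0.14 and 0.10 in the report. The low-dose DEN minus acetaminophen difference of Glod4 and RGD1309077, -0.06, reversed to 0.016 with a pseudocount of 10 and 0.22 with quantile normalization, and ranged from -0.51 to 0.28 without 1 replicate. Quantile normalization also turned Epha10 to -0.11 and Sult5a1 to -0.066, and without 1 replicate Epha10 ranged from -0.095 to 0.11 and Cldn22 from -0.10 to 0.15, none past the threshold. The libraries left out, and the alternatives for the dense stretch and for high-dose DEN minus phenobarbital, were chosen after seeing the data. edgeR and DESeq2 on recovered reads were not run, since the placeholder for no read kept the table from being taken as counts. The median peak had 18 to 22 reads in its higher set, and this depth limits what a single peak can show.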
